A study of Homo sapiens with 10 samples.

Results

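The comparison described here sets libraries labelled with dual effectors at the HS2 enhancer against libraries labelled dCas9-LSD1, and the names of the groups are those of the labels throughout. It was made up of the RNA-seq libraries of K562 cells whose labels name enCRISPRi-LK or enCRISPRi-KL with sgHS2, 4 samples in all, and of the 2 samples labelled dCas9-LSD1 with sgHS2, so that 6 of the 10 samples of the series entered it. K562 is an erythroleukemia line in which embryonic and fetal globins are transcribed. dCas9 is a Cas9 protein that binds DNA at the site of its sgRNA without cutting it. By the study's description, the libraries labelled dCas9-LSD1 (L) carried LSD1 fused to dCas9. Those labelled enCRISPRi-LK (LK) carried the same fusion together with MCP-KRAB, a repressor domain brought in through MS2 hairpins in the sgRNA, and those labelled enCRISPRi-KL (KL) had the effectors exchanged, with dCas9-KRAB and MCP-LSD1. The sgRNAs of all 3 groups were directed at HS2. The libraries labelled dCas9-KRAB (K), also with sgHS2, and those labelled sgGal4, with a nontargeting sgRNA and no effector stated in the label, had 2 samples each and are given beside the comparison as a background level. The cells were sorted pools of stably transduced cells and not clones, the dCas9 fusion was under a doxycycline-inducible promoter, and the labels do not say whether the 2 replicates of a group came from separate transductions, so that the tests measure only the spread between these samples. The values are shares of each library, at a sequencing depth the files do not give, and cannot tell fewer transcribing cells from less RNA in each cell.

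HS2 is a DNase I hypersensitive site of the locus control region, the enhancer cluster upstream of the β-like globin genes that drives their transcription in erythroid cells. LSD1, the product of KDM1A, removes mono- and dimethylation from lysine 4 of histone H3, a mark of enhancers, and acts in vertebrate cells largely within the CoREST complex. The KRAB domain of zinc finger proteins recruits TRIM28, which brings in the methyltransferase SETDB1 and leads to trimethylation of lysine 9 of histone H3, a mark of silent chromatin.

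The genes of the effectors were read first, as a check of the labels. KDM1A (hg19, chromosome 1, 23345961 to 23410182, plus strand) was at 105 and 84.2 TPM in the libraries labelled L, at 27.4 and 30.6 TPM in those labelled LK and at 26.8 and 26.6 TPM in those labelled KL. TPM gives a gene's part of the transcripts in a library. The libraries labelled L stood apart, and all 4 libraries labelled LK or KL lay within the range of the libraries labelled sgGal4 (25.2 and 33.5 TPM), with those labelled K (29.2 and 27.7 TPM), although the constructs named by the LK and KL labels also hold LSD1. The log2 difference between the mean of LK and KL and the mean of L was -1.72 (standard error 0.194, adjusted p = 0.00200). The call was lost without dCas9-LSD1 replicate 1 (log2 difference -1.56, adjusted p = 0.0763), and the adjusted p ran from 0.000566 to 0.0763 over 16 alternatives.

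ZNF10 (chromosome 12, 133707213 to 133736051, plus strand) encodes the zinc finger protein from which the KRAB domain of many dCas9 fusions was taken. Its level was 128 and 136 TPM in the libraries labelled L, 36.8 and 31.5 TPM in those labelled LK and 365 and 359.9 TPM in those labelled KL. In the libraries labelled K it was listed at 1.18 and 3.80 TPM, and in those labelled sgGal4 at 0.970 and 1.89 TPM. The libraries labelled L, whose label names no KRAB, thus lay above those labelled LK and below those labelled KL, with no overlap between any of the 3 groups. ZNF10 fell by 1.92 on the log2 scale from L to LK (standard error 0.329, adjusted p = 0.0376) and was 1.45 higher in KL (adjusted p = 0.110). These levels go against the labels, so that every direction given here is between libraries labelled in a certain way and not between cells shown to hold a given effector. Whether reads of the transgenes were counted in these values is not known. Any that were counted cannot be told apart from reads of the endogenous gene.

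**Figure D1:**
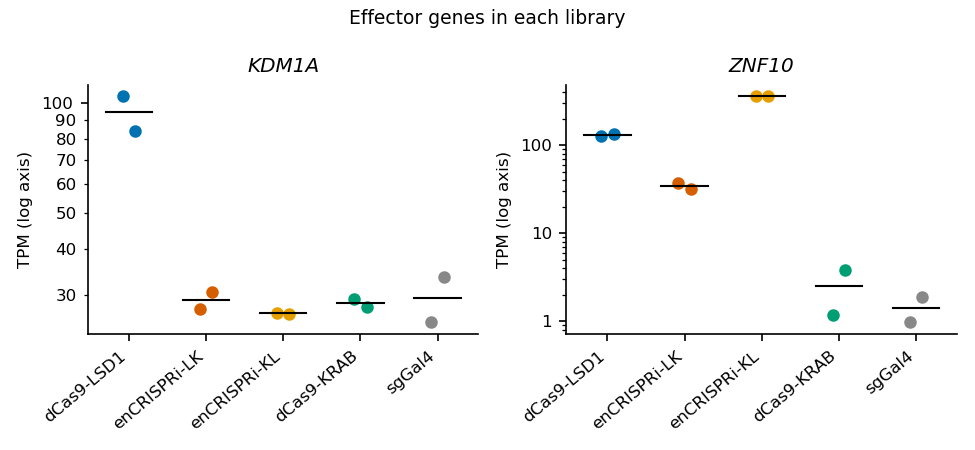
TPM of KDM1A and ZNF10 (log axis) in each library, with 1 point for a library and a line at the mean of the 2 libraries of a group. KDM1A was high in the 2 libraries labelled dCas9-LSD1, and ZNF10 was high in those labelled dCas9-LSD1, enCRISPRi-LK and enCRISPRi-KL.

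Across the transcriptome, the libraries labelled LK or KL correlated with those labelled L by 0.936 to 0.955. The replicates within L, LK or KL correlated by 0.951 to 0.963. Of the 10127 genes that averaged 1 TPM or more across the 10 libraries, 19 (0.188%) passed an adjusted p of 0.05 for the mean of LK and KL against L, with 11 higher and 8 lower in the dual-effector libraries, and 879 had an unadjusted p under 0.05. Fold changes are differences of log2(TPM + 1), a scale on which genes near 1 TPM appear to change less than they do. The genes that fell were HBE1, HBG2 and HBZ among the globins, KDM1A, the erythroid gene HEMGN, and ACSM3, OPTN and SOD3. Those that rose were FN1, VIM, EPB41L3, MYO1F, GMFG, SAMSN1, TFPI, SOSTDC1, PAGE5, APBB2 and MT-ND6. For 17 of the 19 genes the 4 dual-effector libraries did not overlap with the 2 labelled L, FN1 and PAGE5 being the exceptions. Over all genes tested, all 4 dual-effector libraries were above both libraries labelled L for 995 genes (9.83%) and below both for 710 genes (7.01%).

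The count of genes depended on single libraries. It was 2 without dCas9-LSD1 replicate 1 and 3 without replicate 2, 5 without either library labelled LK, and 4 without either labelled KL. HBE1 alone passed without each of the 6 libraries in turn, KDM1A and HBZ passed without 5 of the 6, FN1 without 4 and EPB41L3 without 1, and the other 14 genes passed only with all 6 libraries in place. All 19 genes kept their direction. Of the 19 genes, 57.9% were higher in the dual-effector libraries. This share was 43.8% of 16 genes with median-of-ratios size factors, 42.9% of 21 genes with quantile normalization and 42.1% of 19 genes once the mitochondrially encoded genes were removed, so the balance of higher and lower calls depended on the scaling.

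**Figure D2:**
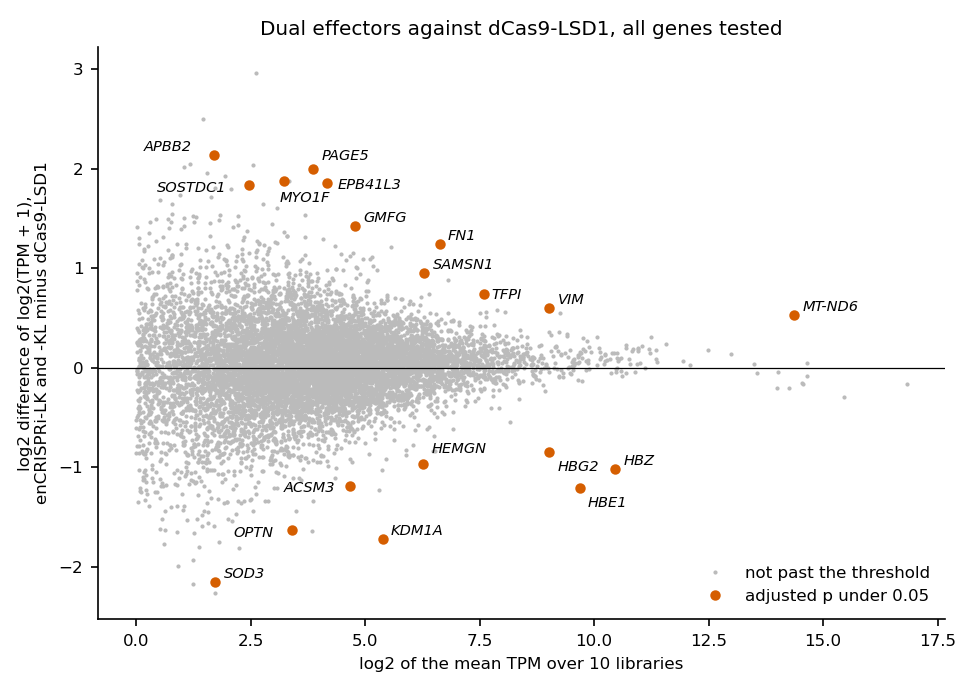
Difference in log2(TPM + 1) between the mean of enCRISPRi-LK and enCRISPRi-KL and dCas9-LSD1 (vertical axis) against the log2 of the mean TPM over the 10 libraries (horizontal axis), with 1 point for each of the 10127 genes. The 19 genes past an adjusted p of 0.05 are named, and HBE1, HBG2, HBZ and KDM1A lie below 0 at high or moderate expression.

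On chromosome 11, minus strand, the β-like genes have 3 exons each (hg19): HBE1, the embryonic gene, from 5289575 to 5291175, the fetal genes HBG2 from 5274418 to 5276011 and HBG1 from 5269499 to 5271087, HBD from 5254068 to 5255713 and the adult gene HBB from 5246694 to 5248301. The promoters of HBE1, HBG2 and HBZ, the globin genes past the threshold, are shown, since the sgRNAs were directed at the distant enhancer and not at these sequences. Each is the 150 bases before the transcript start of the gene in the hg19 genome, read on the strand of the gene. Capitals mark the letters CACCC and CCAAT and the GATA-type words AGATAA or AGATAG or TGATAA or TGATAG, on either strand.
HBE1, chr11:5291176-5291325, minus strand: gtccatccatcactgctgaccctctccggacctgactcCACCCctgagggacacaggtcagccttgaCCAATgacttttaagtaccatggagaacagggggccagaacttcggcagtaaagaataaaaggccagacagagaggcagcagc
HBG2, chr11:5276012-5276161, minus strand: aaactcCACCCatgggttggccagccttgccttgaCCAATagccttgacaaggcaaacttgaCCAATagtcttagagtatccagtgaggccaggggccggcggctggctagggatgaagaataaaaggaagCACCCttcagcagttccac
HBZ, chr16:202493-202642, plus strand: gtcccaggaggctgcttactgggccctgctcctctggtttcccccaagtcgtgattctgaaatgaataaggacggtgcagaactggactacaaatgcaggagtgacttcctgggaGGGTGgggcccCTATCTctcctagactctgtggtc

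The 150 bases before HBG1 (chr11:5271088-5271237) are the same as those before HBG2 at all 150 positions. HBE1 held 1 CACCC and 1 CCAAT, and HBG2 held 2 of each. In HBZ, the CACCC word and the GATA-type word AGATAG were both read on the opposite strand, and CCAAT was not in the window. Of the windows of the same length before 19812 protein-coding genes, 42.3% held CACCC, 26.4% CCAAT and 9.05% a GATA-type word. Matches to CACCC and CCAAT are thus frequent and those to a GATA-type word less so. All are given as a description of the letters only.

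HBE1 had the smallest p of all genes tested. It was at 1019 and 986 TPM in the libraries labelled L, at 557 and 458 TPM in those labelled LK and at 384 and 361 TPM in those labelled KL. Every dual-effector library was thus below both libraries labelled L, and the libraries labelled KL were below those labelled LK. HBE1 fell by 1.21 on the log2 scale (standard error 0.112, adjusted p = 0.000331), which left 43.3% of the level in L. Against the same libraries labelled L, the log2 difference was -0.99 for LK (standard error 0.129, adjusted p = 0.00538) and -1.43 for KL (standard error 0.129, adjusted p = 0.000248), and the difference between LK and KL did not pass the threshold (0.44, adjusted p = 0.230). The libraries labelled K, at 695 and 759 TPM, lay between L and the dual effectors, and the sgGal4 libraries were highest at 1376 and 1620 TPM. Over 16 alternatives the adjusted p of HBE1 ran from 5.13e-05 to 0.0989, and only limma without a mean-variance trend ended the call.

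HBG2 was at 554 and 519 TPM in the libraries labelled L, 365 and 421 TPM in those labelled LK and 222 and 229 TPM in those labelled KL. The 4 dual-effector libraries were below both libraries labelled L, with KL lowest and without overlap between LK and KL. HBG2 fell by 0.85 on the log2 scale (standard error 0.137, adjusted p = 0.0240), with -0.45 for LK (adjusted p = 0.442) and -1.25 for KL (adjusted p = 0.00333). The difference of 0.80 between LK and KL passed the threshold (adjusted p = 0.0485), as for 39 (0.385%) of all genes tested. The call of HBG2 for the mean of LK and KL was lost without any 1 of the 6 libraries (adjusted p between 0.0568 and 0.264). In the libraries labelled K and sgGal4, HBG2 was at 698 and 581 TPM and at 941 and 673 TPM, above all 6 libraries compared.

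HBG1 was at 110 and 97.4 TPM in the libraries labelled L, 70.5 and 64.5 TPM in those labelled LK and 58.9 and 40.6 TPM in those labelled KL. Its dual-effector libraries were also all below those labelled L, but its difference (log2 -0.84) did not reach the threshold (standard error 0.171, adjusted p = 0.0776). For KL alone HBG1 fell by 1.07 (adjusted p = 0.0405), and for LK the difference was -0.61 (adjusted p = 0.391). Most of the sequence of HBG1 is also that of HBG2, and the authors kept only reads with a single location, so the level of each is uncertain and rests on part of its transcript.

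HBD overlapped with L, with 21.6 and 20.4 TPM in L, 22.0 and 19.1 TPM in LK and 20.3 and 15.2 TPM in KL (log2 difference -0.14, adjusted p = 0.915). With 1 library left out, the difference of HBD ran from -0.24 to -0.04. The libraries labelled K, at 41.1 and 39.1 TPM, were above all others for this gene. HBB was listed at 3.28 and 4.26 TPM in L, at 0 and 2.66 TPM in LK and at 0 and 2.25 TPM in KL (log2 difference -1.35, adjusted p = 0.513). A value of 0 in these files may be a failed estimate, and the difference of HBB was -0.89 without enCRISPRi-LK replicate 1, -1.82 without replicate 2 and -2.93 with a pseudocount of 0.1. Of the 5 β-like genes, 2 fell (1 with size factors) and 3 did not pass the threshold. All dual-effector libraries were below both labelled L for 4 of them, against 7.01% of all genes tested. The median log2 difference was -0.85 against 0.03 over all genes tested.

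The summed TPM of the 5 genes was 1707 and 1627 in the libraries labelled L, 1015 and 965 in those labelled LK and 686 and 648 in those labelled KL. The order L, LK, KL was the same in every pair of libraries. The 4 dual-effector libraries held 48.8% of the level in L (log2 difference -1.04, SD 0.0489 for n = 2 and 0.331 for n = 4, two-sided exact permutation test, p = 0.133). This is the smallest p that the 15 assignments of 4 and 2 samples allow, so the test cannot reach 0.05. The sum was 1572 and 1513 TPM in the libraries labelled K and 2459 and 2414 TPM in those labelled sgGal4.

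**Figure D3:**
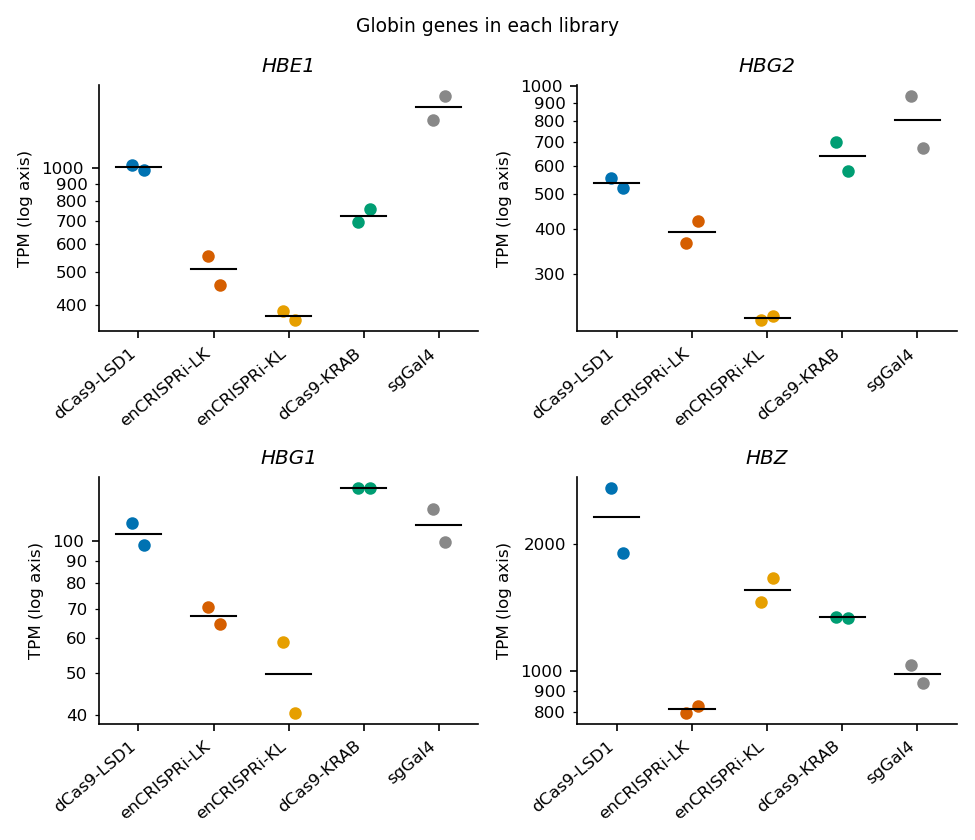
TPM of HBE1, HBG2, HBG1 and HBZ (log axis) in each library, with 1 point for a library and a line at the mean of the 2 libraries of a group. For all 4 genes the libraries labelled enCRISPRi-LK and enCRISPRi-KL lie below those labelled dCas9-LSD1, while the sgGal4 libraries are highest for HBE1 and among the lowest for HBZ.

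HBZ, the embryonic gene of the α-globin cluster (chromosome 16, 202643 to 204502, plus strand), is not linked to HS2 and was also lower in the libraries labelled LK or KL. It was at 2712 and 1909 TPM in the libraries labelled L, 800 and 829 TPM in those labelled LK and 1457 and 1659 TPM in those labelled KL. Here LK was lowest, the reverse of the order seen for HBE1, HBG2 and HBG1. HBZ fell by 1.02 on the log2 scale (standard error 0.123, adjusted p = 0.00312), by 1.48 with LK (adjusted p = 0.000268), and the difference of -0.55 with KL did not pass (adjusted p = 0.165). LK and KL differed from each other by -0.93 (adjusted p = 0.0131). With 1034 and 940.0 TPM in the sgGal4 libraries and 1345 and 1340 TPM in those labelled K, the libraries labelled L were the highest of the series for HBZ. The call was lost without dCas9-LSD1 replicate 1, the higher of the pair (log2 difference -0.76, adjusted p = 0.0763), and the adjusted p ran from 0.000643 to 0.246 over 16 alternatives.

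The other α-like genes did not pass the threshold. HBA1 was at 113 and 83.1 TPM in L, 60.7 and 50.8 TPM in LK and 109 and 94.6 TPM in KL, so that LK lay below L and KL overlapped with it (log2 difference for the mean of LK and KL -0.36, adjusted p = 0.746). The difference of HBA1 was -0.14 without dCas9-LSD1 replicate 1 and -0.58 without replicate 2. HBQ1 was at 33.1 and 37.2 TPM in L, 27.9 and 24.7 TPM in LK and 47.0 and 41.6 TPM in KL, with LK below and KL above (log2 difference -0.04, adjusted p = 0.980). HBA2 was between 1.36 and 7.92 TPM in the 6 libraries and HBM was listed at 0 in all 10. HBA1 and HBA2 have nearly the same coding sequence and are uncertain for the same reason as HBG1 and HBG2. Of the 4 α-like genes tested, 1 fell and 3 did not pass, with a median log2 difference of -0.26.

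HEMGN, which encodes the erythroid nuclear protein hemogen (chromosome 9, 100689073 to 100700454), was at 110 and 109 TPM in the libraries labelled L, 57.6 and 50.4 TPM in those labelled LK and 61.1 and 54.2 TPM in those labelled KL. The dual-effector libraries had similar levels to each other and were all below L, and the sgGal4 libraries, at 94.9 and 104 TPM, were near L. HEMGN fell by 0.96 on the log2 scale (standard error 0.157, adjusted p = 0.0240), a call lost without any 1 of the 6 libraries (adjusted p between 0.0739 and 0.348).

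Around these genes, the lists of red cell genes held no other member past the threshold by limma, and the members named here were chosen after their values were seen. In the heme synthesis list, 11 of 12 genes had a log2 difference below 0 and the median was -0.31, with 0 genes past the threshold and 1 at an unadjusted p under 0.05. FECH, the ferrochelatase that inserts iron to form heme, was at 92.0 and 104 TPM in L, 45.8 and 60.9 TPM in LK and 60.8 and 62.0 TPM in KL (log2 difference -0.77, adjusted p = 0.150). ALAS2, the erythroid enzyme of the first step of the pathway, was at 50.5 and 55.7 TPM in L and between 38.2 and 46.0 TPM in the dual-effector libraries (log2 difference -0.34, adjusted p = 0.635). FECH, ALAS2, PPOX and ABCB10 were the 4 of 12 genes with all dual-effector libraries below L. ALAS1, the housekeeping form of ALAS2, was the single gene with all of them above. The shares over all genes tested were 7.01% below and 9.83% above.

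In the red cell membrane list, 14 of 16 genes tested had a log2 difference below 0, the median was -0.36, and 0 passed the threshold, with 4 at an unadjusted p under 0.05. GYPB, a glycophorin of the MNS blood group, was at 53.4 and 69.4 TPM in L, 26.3 and 37.2 TPM in LK and 23.9 and 31.5 TPM in KL (log2 difference -1.03, adjusted p = 0.0767, between 0.0438 and 0.743 over 16 alternatives). GYPB has close copies in the genome, and its level is uncertain. For GYPB the libraries labelled L were above all 4 dual-effector libraries, as they were for the blood group gene RHD and the spectrin gene SPTB. This order was seen for 4 genes of the list, against 7.01% of all genes tested, while 12 genes of the list overlapped. Both lists had the same numbers of genes below 0 with size factors and with quantile normalization, and 11 and 15 genes once the mitochondrially encoded genes were removed.

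Of the erythroid transcription factors, 8 of 18 genes were above 0 and 10 below, with a median of -0.05 and 0 past the threshold (3 at an unadjusted p under 0.05). With quantile normalization 5 were above and 13 below (median -0.10), and once the mitochondrially encoded genes were removed 6 were above and 12 below (median -0.12). GFI1B, a repressor that binds LSD1, was at 62.8 and 55.8 TPM in L, between 35.6 and 36.1 TPM in LK and at 45.2 and 38.7 TPM in KL (log2 difference -0.60, adjusted p = 0.369). KLF1, an activator of erythroid genes, was at 52.4 and 49.4 TPM in L and between 35.9 and 42.6 TPM in the dual-effector libraries (log2 difference -0.39, adjusted p = 0.578). MYB had the opposite order, with 77.5 and 93.9 TPM in L, 132 and 148 TPM in LK and 115 and 109 TPM in KL (log2 difference 0.55, adjusted p = 0.341). All 4 dual-effector libraries were below L for GFI1B, KLF1 and FOXO3 and above L for MYB, GATA2 and STAT5B, each without a call. The shares over all genes tested were 7.01% below and 9.83% above. GATA1 was listed at 0 in all 10 libraries, which also list housekeeping genes such as PGK1 at 0, and is therefore not measured here. In the iron list, BLVRB, a biliverdin reductase of red cells, was at 378 and 353 TPM in L and between 220.3 and 298 TPM in the dual-effector libraries (log2 difference -0.55, adjusted p = 0.0945), and the list had 9 of 15 genes above 0, a median of 0.15 and 0 genes past the threshold, with 3 at an unadjusted p under 0.05. BLVRB passed as lower with quantile normalization (adjusted p = 0.0265) and once the mitochondrially encoded genes were removed (adjusted p = 0.0465), with a range from 0.0265 to 0.586 over 16 alternatives.

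**Figure D4:**
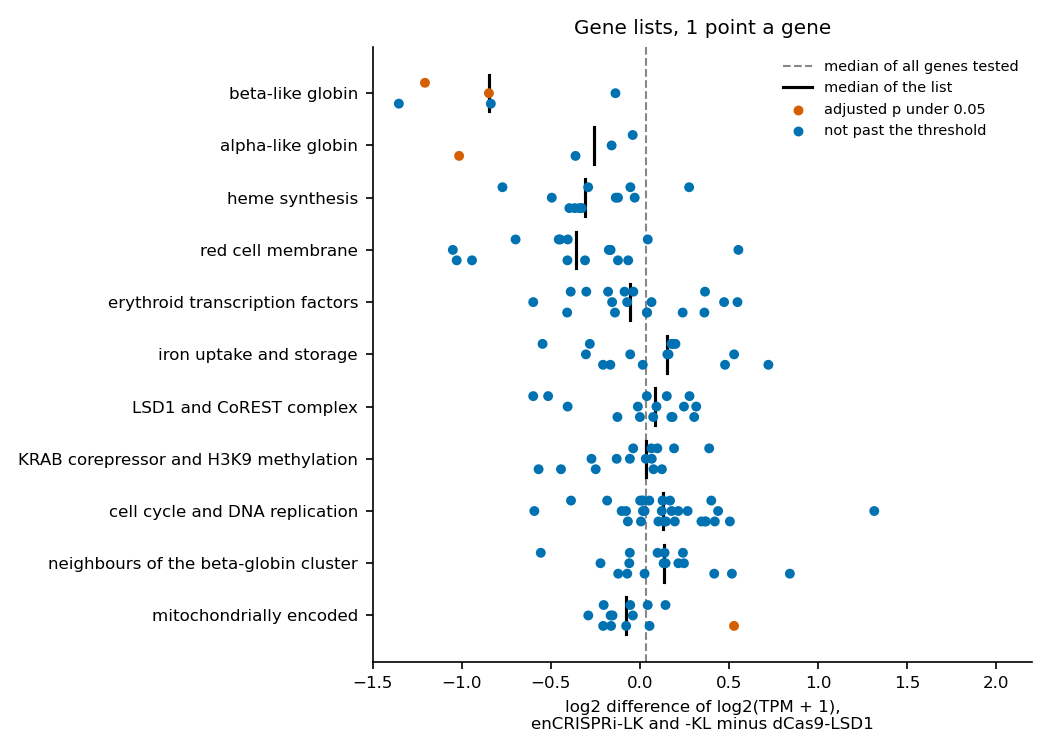
Difference in log2(TPM + 1) between the mean of enCRISPRi-LK and enCRISPRi-KL and dCas9-LSD1 (horizontal axis) for the genes of 11 lists, with 1 point for a gene, a black line at the median of each list and a dashed line at the median of all genes tested, 0.03. Heme synthesis and red cell membrane genes lie mostly below 0 without a gene past the threshold.

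Among the genes that rose, FN1 and VIM, which encode the matrix protein fibronectin and the intermediate filament vimentin, were carried by LK. FN1 (chromosome 2, 216225588 to 216300791, minus strand) was at 31.7 and 31.3 TPM in the libraries labelled L, 209 and 195 TPM in those labelled LK and 28.7 and 27.4 TPM in those labelled KL. The libraries labelled KL were thus below those labelled L, and the rise of 1.24 on the log2 scale for the mean of LK and KL (standard error 0.160, adjusted p = 0.00495) came from LK, which was 2.64 higher than L (standard error 0.185, adjusted p = 9.23e-06) against -0.16 for KL (adjusted p = 0.866). LK and KL differed by 2.80 (adjusted p = 4.19e-06). With LK and KL treated as 1 group, so that the spread between them entered the error, FN1 had an adjusted p of 0.710, the highest over its 16 alternatives, the lowest being 0.00140. Without dCas9-LSD1 replicate 1 or 2 its adjusted p was 0.0775 or 0.156. FN1 was at 127 and 104 TPM in the libraries labelled K and 103 and 129 TPM in those labelled sgGal4, so that the libraries labelled L and KL were low and those labelled LK high within the series.

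VIM was at 351 and 375 TPM in L, 754 and 713 TPM in LK and 431 and 392 TPM in KL. All 4 dual-effector libraries were above L, with KL close to it. The log2 difference was 0.60 for the mean (standard error 0.102, adjusted p = 0.0292), 1.01 for LK (adjusted p = 0.00184) and 0.18 for KL (adjusted p = 0.681), and LK and KL differed by 0.83 (adjusted p = 0.0107). The call of VIM for the mean was lost without any 1 of the 6 libraries, with log2 differences between 0.55 and 0.65. In the 10 alternatives that kept all 6 libraries, VIM passed in 4, with adjusted p by limma from 0.0169 to 0.548.

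EPB41L3, MYO1F, GMFG and SAMSN1 were, like VIM, above L in every library of both dual effectors. EPB41L3, an adaptor between membrane and cytoskeleton, was at 7.09 and 5.32 TPM in L, 19.8 and 29.5 TPM in LK and 25.4 and 26.0 TPM in KL. It rose by 1.86 on the log2 scale (standard error 0.266, adjusted p = 0.0126), and it was the only gene besides HBE1 and KDM1A to pass the threshold for LK (1.82, adjusted p = 0.0374) and for KL (1.90, adjusted p = 0.0168) taken apart. Its call for the mean was kept without enCRISPRi-LK replicate 1 and lost without any other single library (adjusted p = 0.0231 where kept and between 0.0544 and 0.264 where lost). MYO1F, an unconventional myosin of leukocytes, was at 2.58 and 3.33 TPM in L, 10.2 and 13.2 TPM in LK and 16.3 and 14.9 TPM in KL (log2 difference 1.88, standard error 0.301, adjusted p = 0.0240).

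GMFG, a regulator of actin branches in blood cells, was at 11.6 and 13.8 TPM in L, 30.5 and 22.9 TPM in LK and 46.3 and 50.0 TPM in KL (log2 difference 1.42, adjusted p = 0.0240). SAMSN1, an adaptor protein of hematopoietic cells, was at 50.5 and 43.6 TPM in L, 100.2 and 90.5 TPM in LK and 94.9 and 81.6 TPM in KL (log2 difference 0.95, adjusted p = 0.0245). TFPI, an inhibitor of the tissue factor pathway of coagulation, was at 91.4 and 95.0 TPM in L, 163 and 180 TPM in LK and 140.4 and 144 TPM in KL (log2 difference 0.74, adjusted p = 0.0360). For GMFG, SAMSN1 and TFPI the libraries labelled L were also below those labelled K and sgGal4. The sgGal4 libraries were the highest for TFPI, at 372 and 309 TPM.

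SOSTDC1, APBB2 and PAGE5 also rose, from levels under 5 TPM in L. SOSTDC1, a secreted antagonist of BMP and Wnt signals, was at 1.80 and 1.32 TPM in L, 8.67 and 6.36 TPM in LK and 9.53 and 8.04 TPM in KL (log2 difference 1.83, adjusted p = 0.0292). APBB2, an adaptor that binds the amyloid precursor protein, was at 1.01 and 0 TPM in L, 5.58 and 4.39 TPM in LK and 4.84 and 6.23 TPM in KL (log2 difference 2.13, adjusted p = 0.0490). PAGE5, a cancer-testis antigen gene, was at 4.80 and 2.02 TPM in L, 6.90 and 4.48 TPM in LK and 44.6 and 38.9 TPM in KL. For SOSTDC1 and APBB2 both dual effectors were above L, whereas for PAGE5 the libraries labelled LK overlapped with L and the log2 difference of 2.00 for the mean (adjusted p = 0.0307) came from KL (3.35, adjusted p = 0.00285, against 0.65 for LK, adjusted p = 0.715). The rise of APBB2 passed in 0 of 15 alternatives (adjusted p between 0.0536 and 0.607), among them a pseudocount of 0.1 (adjusted p = 0.0979), and its size depends on the pseudocount because a library labelled L is listed at 0. None of MYO1F, GMFG, SAMSN1, TFPI, SOSTDC1, APBB2 and PAGE5 passed the threshold once any 1 of the 6 libraries was left out, with adjusted p between 0.0568 and 0.607 over these genes and libraries.

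MT-ND6, a subunit of complex I of the respiratory chain and the only protein-coding gene on the light strand of the mitochondrial genome, was at 16933 and 18074 TPM in L, 20643 and 21700 TPM in LK and 29635 and 30489 TPM in KL. It rose by 0.53 on the log2 scale (standard error 0.0814, adjusted p = 0.0236), with 0.27 for LK (adjusted p = 0.424) and 0.78 for KL (adjusted p = 0.00285), and the call was lost without any 1 of the 6 libraries (adjusted p between 0.0739 and 0.245). It was also lost with size factors (adjusted p = 0.302), and over all 15 alternatives the adjusted p ran from 1.19e-05 to 0.459. All 4 dual-effector libraries were above L, as were both libraries labelled K, whereas both sgGal4 libraries were below L. The other 12 mitochondrially encoded genes did not pass the threshold (1 passed as lower with quantile normalization). The median of the list was -0.08 (0 with quantile normalization). For 6 of the 13 genes all dual-effector libraries were below L, against 7.01% of all genes tested. The mitochondrially encoded genes made up 46.7% and 46.1% of the listed TPM in the libraries labelled L, 42.8% and 44.0% in those labelled LK and 42.9% and 44.9% in those labelled KL. This share moves with the groups. With these genes removed and the rest rescaled, 10684 genes were tested and 19 were called. Of these, 16 were among the 19 named above, of which MT-ND6 was itself removed. The share of calls that were higher was then 42.1%, against 57.9% in the main setting. The equal count of 19 does not measure the part of the mitochondrial share in the other differences, which was not tested further.

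The remaining genes that fell are not red cell genes by their known function. SOD3, the extracellular superoxide dismutase, was at 9.80 and 8.83 TPM in L, 0.820 and 0.900 TPM in LK and 1.60 and 2.21 TPM in KL (log2 difference -2.15, standard error 0.342, adjusted p = 0.0240). OPTN, an autophagy receptor, was at 15.6 and 24.5 TPM in L, 6.89 and 5.88 TPM in LK and 5.68 and 4.35 TPM in KL (log2 difference -1.63, adjusted p = 0.0315). ACSM3, a mitochondrial acyl-CoA synthetase, was at 34.8 and 39.9 TPM in L, 10.3 and 13.7 TPM in LK and 21.7 and 20.2 TPM in KL (log2 difference -1.19, adjusted p = 0.0360). For each of these 3 genes the libraries labelled L were above all 4 dual-effector libraries, and the calls were lost without any 1 of the 6 libraries (adjusted p between 0.0627 and 0.607). SOD3 was listed at 0.130 and 0 TPM in the sgGal4 libraries, while ACSM3 was at 36.2 and 40.4 TPM there, at the level of L.

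The libraries labelled K and sgGal4, which took no part in the contrast, show on which side the 19 genes stood apart. For 13 genes the sgGal4 mean of log2(TPM + 1) was nearer to the dual effectors than to L, and for 6 genes, HBE1, HBG2, HEMGN, OPTN, ACSM3 and MT-ND6, it was nearer to L. The mean of K was also nearer to the dual effectors for 13 genes. L had the lowest mean of L, K, sgGal4 and the dual effectors for 10 of the 11 genes that rose, MT-ND6 being the exception, and the highest for 5 of the 8 that fell, namely KDM1A, HBZ, SOD3, HEMGN and OPTN. Only for HBE1, HBG2, ACSM3 and MT-ND6 did L lie between the other means. The 19 genes were chosen by their difference from L, so these positions are a description with no test.

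The comparisons of LK and of KL with L share the 2 libraries labelled L, so their values are given side by side and not as independent results. LK against L gave 12 genes (0.118% of those tested), 4 higher and 8 lower, and KL against L gave 28 genes (0.276%), 21 higher and 7 lower. Leaving out 1 of the 6 libraries gave between 2 and 9 genes for LK and between 2 and 17 for KL. For LK 33.3% of the calls were higher, against 25.0% with size factors, 21.4% with quantile normalization and 16.7% without mitochondrially encoded genes, and for KL 75.0% were higher, against 64.3% with size factors, 62.5% with quantile normalization and 53.8% without mitochondrially encoded genes. Of the 19 genes of the mean, 9 passed for LK, 10 for KL and 3 for both, and 18 had the same sign in both, with FN1 as the exception. Agreement in sign is favoured by the shared libraries and by the choice of the genes.

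**Figure D5:**
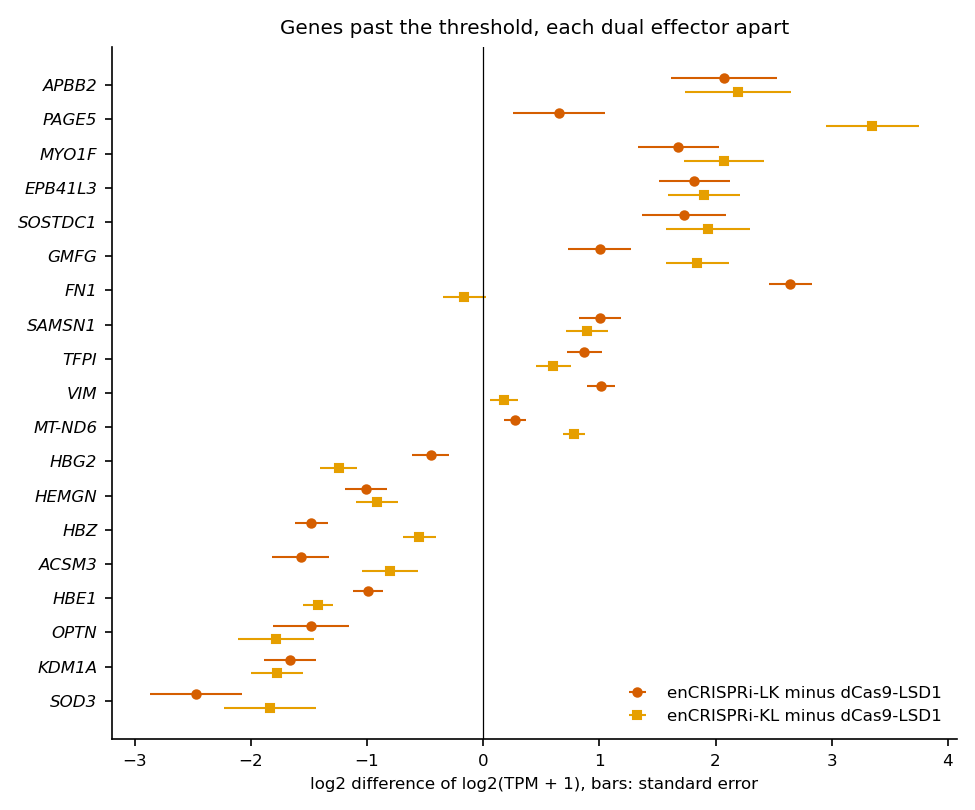
Difference in log2(TPM + 1) from dCas9-LSD1 for enCRISPRi-LK (circles) and enCRISPRi-KL (squares), with bars for the standard error, for the 19 genes past the threshold for their mean. FN1 and VIM differ mainly with enCRISPRi-LK and PAGE5 with enCRISPRi-KL, while EPB41L3, KDM1A and HEMGN have similar values with both.

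Genes outside the 19 were also called for 1 dual effector. DDIT4, an inhibitor of mTORC1 signalling and a target of ATF4, was at 49.2 and 39.2 TPM in L, 14.5 and 13.4 TPM in LK and 49.9 and 35.4 TPM in KL. It fell with LK (log2 difference -1.59, adjusted p = 0.0182) and overlapped with L in KL (-0.06, adjusted p = 0.965), and the sgGal4 libraries were far above both at 146 and 195 TPM. KB-1507C5.2, a transcript known by its clone name, was at 4.81 and 6.27 TPM in L, listed at 0 in both libraries labelled LK and at 2.54 and 5.17 TPM in KL (adjusted p = 0.0334 for LK).

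With KL, ENAH, a regulator of actin filaments, was at 1.36 and 4.80 TPM, against 17.8 and 20.3 TPM in L and 15.9 and 16.0 TPM in LK. ENAH fell by 2.44 from L to KL (adjusted p = 0.0168) and LK stayed just below L (-0.24, adjusted p = 0.926). Several genes were near or at 0 in L and present in KL. SLC18A2, the vesicular monoamine transporter, was listed at 0 in both libraries labelled L, at 0.400 and 0.260 TPM in LK and at 7.37 and 6.20 TPM in KL (adjusted p = 0.0107), and RAB27B, a GTPase of secretory vesicles, was listed at 0 in L, at 0.0800 and 0 TPM in LK and at 5.90 and 8.77 TPM in KL (adjusted p = 0.0161). The clone-named transcripts CTD-2583A14.10 and RP11-1035H13.3 were also called with KL, the former listed at 0 in L, at 10.6 and 0 TPM in LK and at 13.1 and 21.6 TPM in KL (adjusted p = 0.0405), the latter at 2.62 and 0 TPM in L, at 0 in both libraries labelled LK and at 14.4 and 16.8 TPM in KL (adjusted p = 0.0405). For SLC18A2, RAB27B and CTD-2583A14.10 no fold is given because L is listed at 0. SLC18A2 and RAB27B reached the mean of 1 TPM needed for testing only through the libraries labelled KL, in which they were high.

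Below the threshold, the largest differences among genes averaging 5 TPM or more and without overlap are given as values. ARHGDIB, a regulator of the cytoskeleton in blood cells, was at 4.54 and 3.25 TPM in L, 8.70 and 10.5 TPM in LK and 32.6 and 26.1 TPM in KL (log2 difference 1.88, adjusted p = 0.0698), and the difference for KL alone passed (2.64, adjusted p = 0.0168). NPW, a neuropeptide gene, WIPF1, and CPZ, a carboxypeptidase that modulates Wnt signals, had log2 differences of 1.71, 1.64 and 1.45 (adjusted p between 0.135 and 0.219). WIPF1, a partner of the WASP protein in actin assembly, was at 0.840 and 3.86 TPM in L and between 7.56 and 8.83 TPM in the dual-effector libraries, and its difference was 0.94 without dCas9-LSD1 replicate 1 and 2.34 without replicate 2.

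On the lower side, DMC1, a recombinase of meiosis, was at 18.4 and 27.6 TPM in L, 11.6 and 3.85 TPM in LK and 4.68 and 8.50 TPM in KL (log2 difference -1.64, adjusted p = 0.133). CD36, a scavenger receptor found on platelets and erythroid cells, was at 12.5 and 11.4 TPM in L, 1.44 and 9.41 TPM in LK and 3.35 and 3.81 TPM in KL (log2 difference -1.43, adjusted p = 0.408). ANK3, a membrane adaptor of the spectrin skeleton, BCL2L2-PABPN1, and CSPG5, a proteoglycan, had log2 differences of -1.33, -1.33 and -1.32 (adjusted p between 0.150 and 0.561). BCL2L2-PABPN1 is a readthrough of neighbouring genes and shares their reads. It was at 0.190 and 9.44 TPM in LK, and its difference was -0.55 without enCRISPRi-LK replicate 1 and -2.12 without replicate 2. That of CD36 was -0.91 and -1.96 without the same libraries. All of these genes were chosen for the absence of overlap, so their separation carries no weight of its own.

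The partners of the effectors showed no called gene. In the list of KRAB corepressors and H3K9 methylation, 8 of 15 genes tested were above 0 and 7 below (median 0.03, and -0.02 with quantile normalization), and SETDB1 was at 46.5 and 39.4 TPM in L, 28.3 and 30.9 TPM in LK and 32.6 and 33.4 TPM in KL (log2 difference -0.44, adjusted p = 0.676). In the CoREST list 10 of 16 genes were above 0 (median 0.08), and 0 and 1 genes of these 2 lists had an unadjusted p under 0.05. Of the 17 neighbours of the β-globin cluster that were tested, 11 were above 0 with a median of 0.13 and 0 calls by limma. STIM1, a calcium sensor, was the single gene of that list with all dual-effector libraries above L, and SMPD1, a sphingomyelinase, the single gene below. The shares over all genes tested were 9.83% above and 7.01% below. STIM1 was at 23.7 and 19.0 TPM in L and between 27.8 and 29.2 TPM in the dual-effector libraries.

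Other lists were described by their counts and had 0 genes past the threshold for the mean of LK and KL. Genes of the cell cycle and DNA replication were above 0 for 26 of 32 genes with a median of 0.13, but for 20 of 32 with size factors, 21 with quantile normalization and 19 once mitochondrially encoded genes were removed. CCNE2, a cyclin of the entry into S phase, was at 8.06 and 4.56 TPM in L and between 12.1 and 20.9 TPM in the dual-effector libraries (log2 difference 1.31, adjusted p = 0.122). Genes of the ATF4 response were below 0 for 22 of 30 with a median of -0.23, with a median of -0.49 for LK and 0.02 for KL. The median was -0.10 for sterol and fatty acid synthesis (20 of 30 below 0), -0.22 for immediate early genes (8 of 14 below 0), 0.08 for the unfolded protein response (8 of 14 above 0, but 7 of 14 under each of the 3 scalings), 0.05 for glycolysis and hypoxia (13 of 21 above 0, but a median of -0.04 with quantile normalization), 0.01 for STAT5 and BCR-ABL targets (8 of 15 above 0, but -0.05 with quantile normalization), 0.15 for the interferon response (5 of 7 above 0, but 5 of 9 and a median of 0.03 without mitochondrially encoded genes) and 0.06 for regulators of fetal globin switching (10 of 18 above 0, but 9 of 18 under each of the 3 scalings). The number of genes at an unadjusted p under 0.05 in these 9 lists, in the order given, was 3, 3, 3, 2, 2, 5, 1, 0 and 3.

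The identity of the cells was read from markers. Among the markers of K562, GYPC was between 246 and 322 TPM in the 6 libraries and NFE2 between 107 and 132 TPM, with TAL1 and LMO2 present in all of them. TFRC was at 225 and 230.4 TPM in L and lower, between 154 and 219 TPM, in the dual-effector libraries (adjusted p = 0.677). GATA2 was at 71.2 and 62.0 TPM in L and between 77.8 and 98.6 TPM in the dual-effector libraries (adjusted p = 0.552). The summed TPM of the T cell markers was 40.9 and 43.6 in L, 53.1 and 40.2 in LK and 54.4 and 28.3 in KL, with TCF7, LEF1 or CD3D the highest, depending on the library, and CD3E, CD247, CD2, CD4, CD5, LCK and PTCRA listed at 0 in all libraries. That of the HEK293-type markers was 2.21 and 3.86 in L, 7.59 and 7.34 in LK and 3.98 and 3.66 in KL, with LHX1 the highest in LK, PAX8 the highest in L, and PAX2, SIX2, SALL1, INA and OSR1 listed at 0. The megakaryocyte list summed to 269.9 and 264 TPM in L, 241 and 256 TPM in LK and 318 and 299 TPM in KL, with NFE2 as the most abundant gene and PF4, GP9, GP6, VWF and F13A1 listed at 0, and the myeloid list to 35.1 and 39.8 TPM in L, 47.2 and 63.7 TPM in LK and 50.4 and 43.8 TPM in KL, with CD33 as the most abundant gene and MPO and ELANE listed at 0. None of the markers of these 4 lists passed the threshold, with 4, 2, 10 and 6 of them tested by limma and 0, 1, 3 and 1 at an unadjusted p under 0.05. The libraries labelled LK were above L for the sum of the HEK293-type list and below L for that of the megakaryocyte list. Those labelled KL were above L for the megakaryocyte list and overlapped with L for the HEK293-type list. For the myeloid list all 4 dual-effector libraries were above L, and for the T cell list they overlapped with it. The part of these sums in the other results was not tested.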

How the data were processed

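RNA-seq values are the TPM that the authors deposited for 20535 genes in 10 libraries of K562 cells, 2 in each of 5 groups. By their description, reads were aligned to hg19 with STAR 2.5.2b, reads with a single location were kept, and RSEM gave the values. The described kit is Ovation (NuGEN), while the labels name NEBNext. Read depth is not given, and the listed TPM summed to between 790470 and 844414 per library. The 10127 genes averaging 1 TPM or more were fitted as log2(TPM + 1) with limma 3.58.1 in R 4.3.3, with 5 group means, 5 residual degrees of freedom, a mean-variance trend (prior degrees of freedom 9.08) and Benjamini-Hochberg adjustment over all genes tested. The contrasts were the mean of LK and KL against L, and LK and KL each against L. DESeq2 needs counts and was not run on TPM. The summed β-like globin TPM was compared by an exact permutation test in Python 3.11.15. Figures were drawn with matplotlib 3.10.9. A simulation with independent normal noise and equal shifts in LK and KL was used only to check whether the code recovered such shifts. It does not test the procedure where LK and KL differ, where values are 0 or for replicates of unknown origin. Named genes are the globins, the effector genes, the genes past the threshold with the largest changes, and the 8 largest rises and falls without overlap at a mean of at least 5 TPM, and others were chosen after their values were seen. Members of the comparison and the 24 gene lists were chosen with earlier results of these data known. Alternatives were the pseudocount, the filter, 3 scalings, the variance trend, the libraries fitted, LK and KL as 1 group, a replicate block and leaving out each library. Promoters and positions come from the GRCh37 genome and GENCODE release 44 mapped to it. HBM, at 0 in all libraries, was not tested.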

Additional observations from a re-analysis of the deposited data

Results flagged for a closer look

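The libraries labelled enCRISPRi-LK and those labelled enCRISPRi-KL, each compared with the same libraries labelled dCas9-LSD1, differed from each other for 12 of the genes named, by the limma test of the difference between them (adjusted p under 0.05 over all genes tested). Of all genes tested, 39 (0.385%) passed this test. Some of the genes were named because they passed for enCRISPRi-LK or for enCRISPRi-KL alone, a choice that favours a difference between the 2. On the log2 scale, enCRISPRi-LK minus enCRISPRi-KL was 2.80 for FN1, 2.19 for ENAH, 0.83 for VIM and 0.80 for HBG2. It was -0.51 for MT-ND6, -0.93 for HBZ, -1.53 for DDIT4, -2.70 for PAGE5 and -3.37 for ZNF10. It was -2.55 for SLC18A2, -2.98 for RAB27B and -4.05 for RP11-1035H13.3, which were near or at 0 in the libraries labelled enCRISPRi-LK, so that these differences depend on the pseudocount and are no measure of a fold. SLC18A2 and RAB27B also reached the mean of 1 TPM needed for testing only through the libraries labelled enCRISPRi-KL, so their differences rest on the group that let them in. The libraries labelled dCas9-LSD1 cancel from these differences. The cause was not tested.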

How the results depend on the processing

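Of the 19 genes past the threshold for the mean of LK and KL against L, 19 kept their direction in every alternative and 0 passed in every alternative. The count fell to 4 with no filter on low values, 4 with no mean-variance trend, 9 with LK and KL as 1 group and 12 with a replicate block. For LK against L it was 6 with no filter, 2 with no trend and 6 with only the 6 libraries of the 3 groups, and for KL against L it was 15 with a pseudocount of 0.1, 15 with no filter and 18 with no trend. Leaving out 1 library gave counts from 2 to 5 for the mean, 2 to 9 for LK and 2 to 17 for KL. With fewer samples the test has less power, and a lone library labelled L is then assumed to vary like the other groups. The cause of the other changes was not tested.

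With the replicate number as a block, the counts were 12 for the mean, 11 for LK and 21 for KL. The differences of replicate 1 minus replicate 2 correlated between groups by -0.021 to 0.023 over 10 pairs of groups, with 0 above 0.1, so replicates share only a number and no pairing was used. An added alternative, chosen after seeing the data, asked for an absolute log2 change of at least 1 and left 13 genes.

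Of 23 tested genes that the rule for named genes chose without a call, 4 passed in at least 1 alternative (ARHGDIB, CTD-2583A14.10, HBG1 and SLC18A2) and 2 reversed. HBA2 was 0.14 without enCRISPRi-LK replicate 1, and its values without 1 library ran from -0.4617 to 0.1434. HBQ1 was 0.0414 without dCas9-LSD1 replicate 2, 7e-04 without enCRISPRi-LK replicate 2 and 0.0024 without enCRISPRi-KL replicate 2, with a range from -0.1231 to 0.0414. Of 9 genes given a log2 difference after their values were seen, run through the same alternatives, 2 passed in at least 1 (BLVRB and GYPB) and 0 reversed. The log2 difference of the β-like sum, -1.04, stayed between -0.93 and -1.14. The depth is unknown, so the precision of low TPM values cannot be given.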
